A study of Mus musculus with 8 samples.

Results

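The nuclear genes of oxidative phosphorylation were examined in 8 libraries of sorted mouse eosinophils, together with Higd2a. Members were the protein-coding genes whose symbols begin with Ndufa, Ndufb, Ndufc, Ndufs, Ndufv, Uqcr, Atp5 or Cox4 to Cox8, the Sdha to Sdhd genes and Higd2a, without the Ndufaf assembly factors. The rule found 87 of 54446 annotated genes: 36 of complex I, 4 of complex II, 8 of complex III, 20 of complex IV, 18 of complex V and Higd2a. Of these, 77 had enough counts to be tested, among 11828 genes tested in all, and 58 had counts in every library.

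The study sorted eosinophils, a type of granulocyte, in a mouse model of asthma and sequenced their RNA by CEL-Seq. In this method linearly amplified RNA is read and counted at its 3′ end. There were 2 libraries of SiglecFhi/CD101+ eosinophils, 2 libraries of Siglec-Fint/CD101- eosinophils and 4 libraries of resident eosinophils, all from C57BL/6 mice. Siglec-F is a lectin of the eosinophil surface and CD101 is a surface glycoprotein. The labels name no treatment, time, sex or age for a library, and they do not say whether the libraries of a group come from separate mice, so p-values measure the spread between these libraries, which may be technical.

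In oxidative phosphorylation, complexes I and II pass electrons from NADH and succinate to ubiquinone, complex III passes them to cytochrome c and complex IV passes them to oxygen. Complexes I, III and IV pump protons across the inner mitochondrial membrane, and complex V, the ATP synthase, uses the gradient to make ATP. Most subunits are encoded in the nucleus, a few by the mitochondrial genome, and all of complex II by nuclear genes. Higd2a is a small inner membrane protein that takes part in the assembly of cytochrome c oxidase and of respiratory supercomplexes. Eosinophils are known to respire through mitochondria more than neutrophils do.

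The libraries differed in depth and in content. Total counts were 3109428 and 1513517 in SiglecFhi/CD101+ cells, 1517159 and 2990294 in Siglec-Fint/CD101- cells, and 5600610 to 11583550 in resident libraries. Genes of the mitochondrial genome took 82.2% and 70.6% of the counts in SiglecFhi/CD101+ libraries, 69.9% and 83.9% in Siglec-Fint/CD101- libraries, and 38.6% to 61.8% in resident libraries. This left 444902 to 552121 counts of other genes in the 4 subset libraries and 2137819 to 5296468 in the resident libraries. A count of 0 allows up to 3 counts, which is 1.59 to 2.18 CPM (counts per 1000000 of the library's total, scaled by TMM factors) in a subset library and 0.199 to 0.501 CPM in a resident library. Such floors, and all intervals given here, cover counting error only. The 12 eosinophil markers summed to 149 to 454 CPM in SiglecFhi/CD101+ cells, 164 to 296 CPM in Siglec-Fint/CD101- and 188 to 464 CPM in resident libraries, and the groups are called by their labels alone. Epx, Prg3, Il5ra and Ear6 were at 0 in SiglecFhi/CD101+, Epx, Prg3, Il5ra, Gata1 and Siglecf, the gene of the sort marker, in Siglec-Fint/CD101-, and Prg3 in resident libraries. The 10 markers of lung epithelium, of which Muc5ac was at 0 in all groups and Foxj1 in Siglec-Fint/CD101-, summed to 4780 to 5180 CPM in SiglecFhi/CD101+, 4640 to 7790 CPM in Siglec-Fint/CD101- and 1010 to 13600 CPM in resident libraries. The 8 erythroid and platelet markers summed to 3700 to 5590 CPM in SiglecFhi/CD101+ (Alas2 at 0), 2690 to 7680 CPM in Siglec-Fint/CD101- (Alas2 and Gp9 at 0) and 999 to 9800 CPM in resident libraries. The 9 markers of T or NK cells had a higher sum in all subset libraries, though not each marker was higher. The sums were 60.4 to 157 CPM in SiglecFhi/CD101+ (Cd3g and Nkg7 at 0), 134 to 173 CPM in Siglec-Fint/CD101- (Cd8a and Ncr1 at 0) and 20.7 to 27.7 CPM in resident libraries (Ncr1 at 0). The sum of the 7 of B or plasma cells was also higher, at 165 to 324 CPM in SiglecFhi/CD101+, 165 to 351 CPM in Siglec-Fint/CD101- (Pax5 at 0) and 33.2 to 148 CPM in resident libraries. The 8 neutrophil markers summed to 297 to 1090 CPM in SiglecFhi/CD101+ (Ly6g and Camp at 0), 592 to 1530 CPM in Siglec-Fint/CD101- (Mmp8, Camp and Cxcr2 at 0) and 125 to 481 CPM in resident libraries (Ly6g at 0). The 10 macrophage markers, none at 0, had their lowest sum in SiglecFhi/CD101+, at 171 to 215 CPM, against 280 to 701 CPM in Siglec-Fint/CD101- and 281 to 807 CPM in resident libraries. The 8 dendritic cell markers, also none at 0, summed to 76.2 to 141 CPM in SiglecFhi/CD101+, below all other libraries, 169 to 241 CPM in Siglec-Fint/CD101- and 214 to 491 CPM in resident libraries. The 10 of endothelial cells or fibroblasts summed to 929 to 1000 CPM in SiglecFhi/CD101+, 683 to 1170 CPM in Siglec-Fint/CD101- (Pdgfrb at 0) and 199 to 1070 CPM in resident libraries. The part of these other cells in the values below was not tested, and in bulk RNA fewer cells of a type and less RNA per cell cannot be told apart.

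The start regions of 3 members are shown because Higd2a had the smallest p of the members lower in SiglecFhi/CD101+ libraries, Ndufa8 had the smallest p of the higher members, and Cox8a stayed within 278 to 411 CPM in all 8 libraries. Each runs 5′ to 3′ from 250 bases before the RefSeq start site to 50 bases after it in GRCm38.p6, at chr13:54589981-54590280 (plus strand), chr2:36049289-36049588 (minus strand) and chr19:7217567-7217866 (minus strand). Capitals mark matches to letters known to be bound by nuclear respiratory factor 1 (NRF1, written GCGCA and GCGC with any base between them), by ETS factors such as GABP (CCGGAAG) or by YY1 (AAGATGGCG), searched on both strands.
Higd2a: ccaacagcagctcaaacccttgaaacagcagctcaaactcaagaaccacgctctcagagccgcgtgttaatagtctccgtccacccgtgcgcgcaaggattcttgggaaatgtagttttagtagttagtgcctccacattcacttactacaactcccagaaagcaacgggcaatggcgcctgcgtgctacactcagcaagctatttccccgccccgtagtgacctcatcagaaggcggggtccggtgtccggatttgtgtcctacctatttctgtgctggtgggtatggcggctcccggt
Ndufa8: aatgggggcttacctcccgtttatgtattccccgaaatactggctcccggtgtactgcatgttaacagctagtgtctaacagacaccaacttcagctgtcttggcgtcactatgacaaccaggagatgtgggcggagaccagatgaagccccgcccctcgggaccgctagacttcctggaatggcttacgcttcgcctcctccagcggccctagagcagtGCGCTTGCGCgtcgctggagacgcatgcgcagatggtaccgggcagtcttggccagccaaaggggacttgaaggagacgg
Cox8a: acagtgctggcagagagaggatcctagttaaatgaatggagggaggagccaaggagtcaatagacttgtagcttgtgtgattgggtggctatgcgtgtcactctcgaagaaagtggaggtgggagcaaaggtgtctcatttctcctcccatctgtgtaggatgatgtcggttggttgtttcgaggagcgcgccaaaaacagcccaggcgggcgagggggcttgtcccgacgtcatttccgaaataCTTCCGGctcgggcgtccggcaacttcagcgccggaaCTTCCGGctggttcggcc
These letters are not in the Higd2a window. The Ndufa8 window holds the NRF1 letters at position 221, and the Cox8a window holds the ETS letters at positions 246 and 283, counted from 1 at the 5′ end. Over the 68 of 86 distinct member symbols with a RefSeq start region, 16 (23.5%) held the NRF1 letters, against 4.78% of 27025 regions of all genes. The ETS letters were in 15 (22.1%), against 9.12% of all regions, and the YY1 letters in 6 (8.82%), against 1.49%. At least 1 of the 3 was in 32 of the 68 (47.1%), against 14.0% of all regions. A match describes the sequence and is not a measured site.

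Higd2a was nearly absent from SiglecFhi/CD101+ libraries and plentiful in the others. The gene lies on chromosome 13 from 54590207 to 54591158 on the plus strand (GRCm38, GENCODE M21), and its exons overlap no other annotated gene. It had 4 and 0 counts in SiglecFhi/CD101+ libraries, 302 and 149 in the Siglec-Fint/CD101- pair, and 1159, 1460, 1415 and 1824 in resident libraries. As levels these were 2.12 and 0 CPM in SiglecFhi/CD101+ cells, 220 and 92.5 CPM in Siglec-Fint/CD101- cells, and 194, 115, 99.2 and 121 CPM in resident libraries. Both SiglecFhi/CD101+ libraries lay below every other library, and the Siglec-Fint/CD101- and resident libraries overlapped. The log2 fold change of SiglecFhi/CD101+ over resident was -6.89 ± 1.13 (SE) and did not pass the quasi-likelihood test of edgeR (adjusted p = 0.0585, Benjamini-Hochberg over all genes tested). The summed level was 108-fold higher in resident than in SiglecFhi/CD101+ libraries, with an exact 95% counting interval of 42.0 to 395. Against Siglec-Fint/CD101- the log2 fold change was -7.13 ± 1.17 (adjusted p = 0.0918 by edgeR), and Siglec-Fint/CD101- against resident gave 0.24 ± 0.73 (adjusted p = 0.893). Over 17 alternative settings the adjusted p of the first difference ran from 3.45e-07 to 0.267 and passed 0.05 in 5: DESeq2, no filter on low counts, library totals without factors, and leaving out either Siglec-Fint/CD101- library (adjusted p = 0.0463 without replicate 1 and 0.0421 without replicate 2).

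Counts this uneven were found in other genes too. Of the 2981 genes tested with at least 1000 counts over the resident libraries, 192 had at most 5 counts over both SiglecFhi/CD101+ libraries, among them 3 of the 53 members of that depth (Higd2a, Ndufs1 and Ndufb5), and 207 had at most 5 over both Siglec-Fint/CD101- libraries, with no member among them. Higd2a and Myo1e, a class I myosin gene, were the 2 genes that also had at least 100 counts in each Siglec-Fint/CD101- library. The limit of 100 counts was not planned beforehand, and Higd2a meets it by the counts given above. Being 1 of 2 genes is therefore no measure of how rare such a pattern is. The neighbouring gene Nop16, which is transcribed away from a start 117 bases from that of Higd2a, had 1 and 0 counts in SiglecFhi/CD101+ cells, 0 and 1 in Siglec-Fint/CD101- cells, and 10, 167, 77 and 79 in resident libraries. Cltb, on the other side, had 1 and 18 counts in SiglecFhi/CD101+ cells, 0 and 85 in Siglec-Fint/CD101- cells, and 487, 425, 1099 and 792 in resident libraries. Neither neighbour had a count in Siglec-Fint/CD101- replicate 1, where Higd2a had 302 counts. A count of 0 in that library allows up to 2.18 CPM, and Nop16 was at 1.67 CPM in resident replicate 3. Simc1, 4833439L19Rik, Arl10 and Faf2, also near Higd2a, had 0 counts in the same Siglec-Fint/CD101- library.

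**Figure D1:**
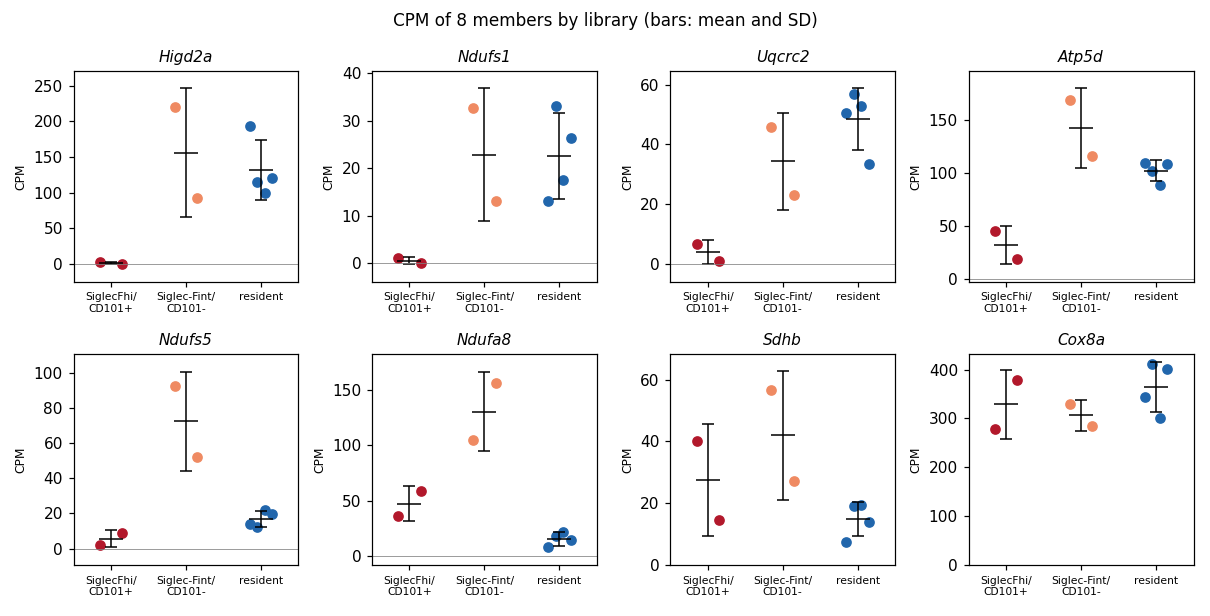
Level in CPM (vertical axes, linear) of 8 members in each library, with SiglecFhi/CD101+, Siglec-Fint/CD101- and resident libraries from left to right; points are libraries, bars are mean and SD. Higd2a is at 2.12 and 0 CPM in SiglecFhi/CD101+ libraries and at 92.5 CPM or more elsewhere, while Ndufa8 lies above all resident libraries in both subsets.

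No member was called by edgeR in SiglecFhi/CD101+ against resident libraries at an adjusted p under 0.05, where 0.0254% of all genes tested were called higher and 0.0% lower. At an unadjusted p under 0.05, 1 member was higher and 5 were lower by edgeR, where 3.65% and 13.1% of all genes were. DESeq2 called 1 member higher (Ndufa8) and 3 lower (Higd2a, Ndufs1 and Uqcrc2), where it called 2.64% of all genes higher and 5.31% lower, and limma-voom called 0, where it called 0.0169% higher and 0.0% lower. The CPM of both SiglecFhi/CD101+ libraries lay above all resident libraries for 5 of 77 members (6.49%) and below them for 25 (32.5%), against 6.78% and 27.4% of all genes tested. The median log2 fold change of members was -0.53, and that of all genes tested was -0.72. Tested members were more abundant than the genes they are set against, with a median log2 mean CPM of 5.03 against 3.05. Shares and medians over all genes, here and below, are not matched for level, and the part of level in them was not tested. The member median in this comparison was also taken by complex. It was -0.39 for the 34 tested members of complex I, 0.63 for the 4 of complex II, -1.22 for the 8 of complex III, -0.56 for the 15 of complex IV and -0.35 for the 15 of complex V.

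For Siglec-Fint/CD101- against resident libraries edgeR also called no member, where it called 0.0338% of all genes higher and 0.0254% lower. At an unadjusted p under 0.05, 2 members were higher and 1 lower, where 1.9% and 13.8% of all genes were. DESeq2 called 2 members higher (Ndufa8 and Ndufs5) and 0 lower, where it called 0.922% and 5.31% of all genes, and limma-voom called 0, where it called 0.0169% higher and 0.0% lower. The groups did not overlap for 12 members that were higher (15.6%) and 11 that were lower (14.3%), against 4.46% and 29.3% of all genes tested. The member median of the log2 fold change was -0.03, and that of all genes was -1.0. By complex it was -0.37 for I, 1.27 for II, -0.03 for III, -0.08 for IV and 0.07 for V.

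In SiglecFhi/CD101+ against Siglec-Fint/CD101- libraries edgeR called no member, where it called 0.00845% of all genes higher and 0.0% lower. At an unadjusted p under 0.05, 1 member was higher and 7 were lower, where 9.98% and 7.96% of all genes were. DESeq2 called 1 member higher (Uqcrc1) and 7 lower (Higd2a, Ndufs1, Ndufs5, Uqcrc2, Uqcrb, Atp5d and Atp5f1), where it called 6.19% and 4.88% of all genes, and limma-voom called 0, where it called 0.0% in either direction. Both SiglecFhi/CD101+ libraries lay above both Siglec-Fint/CD101- libraries for 7 members (9.09%) and below them for 27 (35.1%), against 15.8% and 11.9% of all genes. The member median of the log2 fold change was -0.43, and that of all genes was 0.0. The genes behind these all-gene values were mostly less abundant than the members, so the difference cannot be read as particular to oxidative phosphorylation genes. The 27 were 8 of the 34 tested members of complex I, 5 of 8 of complex III, 5 of 15 of complex IV, 8 of 15 of complex V, and Higd2a.

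With both subsets set against resident libraries in 1 contrast, edgeR called no member, where it called 0.0254% of all genes higher and 0.0% lower. At an unadjusted p under 0.05, 1 member was higher and 5 were lower, where 1.91% and 21.0% of all genes were. DESeq2 called 1 member higher (Ndufa8) and 1 lower (Higd2a), where it called 1.94% and 6.85% of all genes, and limma-voom called 0, where it called 0.00845% higher and 0.0% lower. All 4 subset libraries lay above all resident libraries for Ndufa8 (0.702% of all genes were so), and below them for 5 members (12.0% of all genes were so): Ndufa6, Ndufs4, Ndufs8, Uqcr10 and Cox6b2. The member median was -0.26, and that of all genes was -1.28. These comparisons share the resident libraries.

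**Figure D2:**
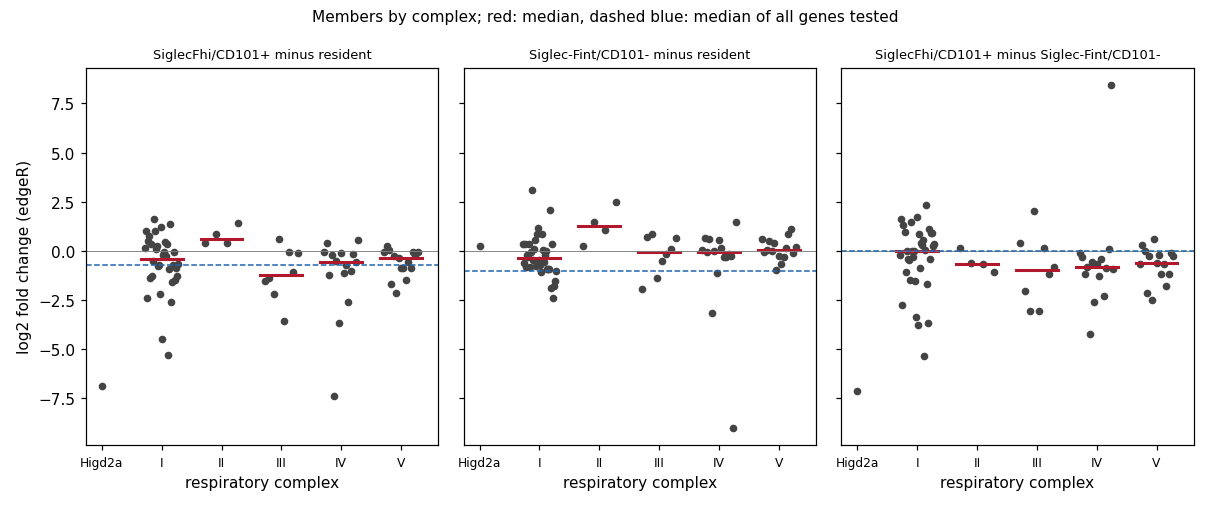
Log2 fold change by edgeR (vertical axis) of each tested member, by complex (horizontal axis), in SiglecFhi/CD101+ minus resident, Siglec-Fint/CD101- minus resident and SiglecFhi/CD101+ minus Siglec-Fint/CD101-; red lines are medians of a complex and the dashed line is the median of all genes tested (-0.72, -1.0 and 0.0). The 4 complex II genes lie above 0 in both comparisons with resident libraries, and Higd2a lies at -6.89 and -7.13 where SiglecFhi/CD101+ is compared.

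Complex I, the NADH dehydrogenase, held members on both sides of the resident level. Ndufs1, the large iron-sulfur subunit of the electron input arm, is on chromosome 1 from 63143596 to 63176833 on the minus strand. It had 1.06 and 0 CPM in SiglecFhi/CD101+ libraries (2 and 0 counts), 32.7 and 13.0 CPM in Siglec-Fint/CD101- libraries, and 13.0, 33.1, 17.5 and 26.4 CPM in resident libraries. The SiglecFhi/CD101+ libraries lay below all others, and the other groups overlapped. Its log2 fold change was -5.31 ± 1.72 against resident (adjusted p = 0.21) and -5.34 ± 1.79 against Siglec-Fint/CD101- (adjusted p = 0.239), neither past edgeR's threshold. The level was 42.1-fold higher in resident than in SiglecFhi/CD101+ libraries (exact 95% counting interval 11.6 to 348).

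Ndufb5, an accessory subunit of the membrane arm, had 2.12 and 0 CPM in SiglecFhi/CD101+ cells, 29.8 and 0 CPM in Siglec-Fint/CD101- cells, and 31.6, 26.7, 20.3 and 18.7 CPM in resident libraries. Here Siglec-Fint/CD101- replicate 1 was at the resident level and replicate 2 at 0. The level was 20.2-fold higher in resident than in SiglecFhi/CD101+ libraries (interval 7.86 to 74.2), and the fitted difference did not pass (adjusted p = 0.282 by edgeR).

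Ndufa8, an accessory subunit facing the intermembrane space, on chromosome 2 from 36036326 to 36049406, ran the other way. It had 36.0 and 58.5 CPM in SiglecFhi/CD101+ cells, 105 and 156 CPM in Siglec-Fint/CD101- cells, and 7.69, 17.6, 22.0 and 14.4 CPM in resident libraries. The groups did not overlap, with Siglec-Fint/CD101- libraries the highest and resident libraries the lowest. The log2 fold change over resident was 1.61 ± 0.74 in SiglecFhi/CD101+ (adjusted p = 0.294) and 3.08 ± 0.75 in Siglec-Fint/CD101- (adjusted p = 0.194). Over both subsets together it was 2.35 ± 0.66 (adjusted p = 0.106 by edgeR), and over 16 alternatives this adjusted p ran from 0.000132 with DESeq2, where it passed, to 0.215.

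Ndufs5, another accessory subunit of the intermembrane space side, separated the subsets. It had 2.12 and 9.15 CPM in SiglecFhi/CD101+ cells, 92.3 and 52.2 CPM in Siglec-Fint/CD101- cells, and 14.2, 12.5, 22.2 and 19.4 CPM in resident libraries. SiglecFhi/CD101+ lay below the resident libraries and Siglec-Fint/CD101- above them. The log2 fold change between the subsets was -3.68 ± 1.28 (adjusted p = 0.239 by edgeR), and Siglec-Fint/CD101- over resident gave 2.08 ± 0.95 (adjusted p = 0.312).

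Other complex I members differed in direction. Ndufa10, a subunit of the membrane arm, had 88.5 and 66.5 CPM in SiglecFhi/CD101+ cells, 24.0 and 26.1 CPM in Siglec-Fint/CD101- cells, and 37.3, 55.3, 33.9 and 28.7 CPM in resident libraries. Ndufb4, also of the membrane arm, had 58.8 and 87.8 CPM in SiglecFhi/CD101+ cells, 42.9 and 2.48 CPM in Siglec-Fint/CD101- cells, and 26.9 to 35.3 CPM in resident libraries. For both genes the SiglecFhi/CD101+ libraries lay above all others. Ndufs3, a core subunit of the peripheral arm, had 66.3 and 26.8 CPM in SiglecFhi/CD101+ cells, 9.45 and 9.31 CPM in Siglec-Fint/CD101- cells, and 7.35, 12.6, 17.7 and 33.6 CPM in resident libraries. Its SiglecFhi/CD101+ libraries lay above Siglec-Fint/CD101- and overlapped the resident libraries. Ndufs8, a core iron-sulfur subunit, had 5.83 and 0.61 CPM in SiglecFhi/CD101+ cells, 2.18 and 1.24 CPM in Siglec-Fint/CD101- cells, and 6.45 to 12.3 CPM in resident libraries. All 4 subset values lay below the resident ones, with 11, 1, 3 and 2 counts behind them. The accessory subunits Ndufa12 and Ndufc2 overlapped between groups, at 213 and 81.7 CPM in SiglecFhi/CD101+ cells, 27.6 and 88.2 CPM in Siglec-Fint/CD101- and 74.4 to 132 CPM in resident libraries for Ndufa12. Ndufc2 had 92.2 and 98.2 CPM in SiglecFhi/CD101+ cells, 2.91 and 126 CPM in Siglec-Fint/CD101- cells, and 36.8 to 102 CPM in resident libraries.

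Complex II, succinate dehydrogenase, took a larger share of the counts outside the mitochondrial genome in both subsets, but not of all counts. Its 4 genes had 0.0364% and 0.0353% of the counts outside the mitochondrial genome in SiglecFhi/CD101+ cells, 0.0418% and 0.0438% in Siglec-Fint/CD101- cells, and 0.0129%, 0.0217%, 0.0233% and 0.0176% in resident libraries. No subset library overlapped a resident one. As summed levels this was 101 ± 7.65 CPM in SiglecFhi/CD101+ (SD, n = 2), 135 ± 5.56 CPM in Siglec-Fint/CD101- (n = 2) and 67.3 ± 16.9 CPM in resident libraries (n = 4). Per 1000000 counts of the whole library, without factors, the sums were 64.6 and 104 in SiglecFhi/CD101+ cells, 126 and 70.6 in Siglec-Fint/CD101- cells, and 49.3, 93.1, 143 and 84.4 in resident libraries, with overlap, and the log2 ratio to the resident mean was -0.13 in SiglecFhi/CD101+ and 0.09 in Siglec-Fint/CD101-. None of the 4 genes passed edgeR's test.

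Sdhb, the iron-sulfur subunit, had 40.3 and 14.6 CPM in SiglecFhi/CD101+ cells, 56.7 and 27.3 CPM in Siglec-Fint/CD101- cells, and 7.52, 19.0, 19.4 and 13.9 CPM in resident libraries. Sdhc, a membrane anchor, had 4.24 and 34.2 CPM in SiglecFhi/CD101+ cells, 26.9 and 34.8 CPM in Siglec-Fint/CD101- cells, and 10.7, 23.0, 12.5 and 12.8 CPM in resident libraries. For these genes Siglec-Fint/CD101- lay above the resident libraries and SiglecFhi/CD101+ overlapped them. Sdhd, the other anchor, had 5.83 and 15.2 CPM in SiglecFhi/CD101+ cells, 2.18 and 41.6 CPM in Siglec-Fint/CD101- cells, and 2.45 to 7.0 CPM in resident libraries, so that replicate 2 of each subset was high. Sdha, the flavoprotein, had 56.2 and 31.7 CPM in SiglecFhi/CD101+ cells, 53.1 and 27.3 CPM in Siglec-Fint/CD101- cells, and 25.2 to 41.9 CPM in resident libraries, with overlap throughout. For both subsets together against resident libraries, the log2 fold changes were 1.18 ± 0.85 for Sdhb (adjusted p = 0.422), 0.72 ± 0.94 for Sdhc (0.687), 1.97 ± 1.23 for Sdhd (0.346) and 0.32 ± 0.69 for Sdha (0.821) by edgeR. Without SiglecFhi/CD101+ replicate 2 the sign for Sdhc turned, to -0.43.

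Complex III, the cytochrome bc1 complex, had its lowest share in SiglecFhi/CD101+ libraries. Its 8 genes took 0.0935% and 0.0922% of the counts outside the mitochondrial genome in SiglecFhi/CD101+ cells, 0.146% and 0.13% in Siglec-Fint/CD101- cells, and 0.108% to 0.118% in resident libraries. By this share the 3 groups did not overlap, with Siglec-Fint/CD101- the highest. By CPM, SiglecFhi/CD101+ lay below all other libraries at 274 and 250 CPM, while Siglec-Fint/CD101-, at 484 and 388 CPM, overlapped the resident libraries at 359 to 461 CPM. The mean summed levels were 262 ± 16.6 CPM in SiglecFhi/CD101+ (n = 2), 436 ± 67.5 CPM in Siglec-Fint/CD101- (n = 2) and 399 ± 43.7 CPM in resident libraries (n = 4).

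Uqcrc2, the core protein 2 of the complex, on chromosome 7 from 120635176 to 120659524, had 6.89 and 1.22 CPM in SiglecFhi/CD101+ cells, 45.8 and 23.0 CPM in Siglec-Fint/CD101- cells, and 50.6, 56.8, 52.9 and 33.6 CPM in resident libraries. SiglecFhi/CD101+ lay below both other groups, which overlapped. The log2 fold change was -3.56 ± 1.15 against resident (adjusted p = 0.21) and -3.07 ± 1.2 against Siglec-Fint/CD101- (adjusted p = 0.243), and did not pass in edgeR. Its exons overlap those of Pdzd9 on the opposite strand over 19.7% of their length. Where strand was not used in counting, reads of such a stretch may be lost or mixed. This holds for 27 members, among them Ndufb5 (12.3% of exon length), Ndufs1 (6.2%), Cox6a2 (10.3%) and Atp5j (12.7%), and its effect was not tested.

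Uqcrc1, core protein 1 and the partner of Uqcrc2, showed the opposite order between the subsets. It had 41.9 and 40.9 CPM in SiglecFhi/CD101+ cells, 12.4 and 8.07 CPM in Siglec-Fint/CD101- cells, and 34.9, 33.6, 17.1 and 21.3 CPM in resident libraries. Thus SiglecFhi/CD101+ lay above and Siglec-Fint/CD101- below the resident libraries. Uqcrb, a ubiquinone-binding subunit, had 11.7 and 0.61 CPM in SiglecFhi/CD101+ cells, 44.4 and 59.6 CPM in Siglec-Fint/CD101- cells, and 30.7, 27.9, 18.4 and 36.5 CPM in resident libraries, again with no overlap. Uqcr10, a small subunit, had 13.3 and 13.4 CPM in SiglecFhi/CD101+ cells, 20.4 and 0 CPM in Siglec-Fint/CD101- cells, and 24.6 to 57.2 CPM in resident libraries. Uqcrq, also a small subunit, had 92.8 and 109 CPM in SiglecFhi/CD101+ cells, 181 and 171 CPM in Siglec-Fint/CD101- cells, and 64.5 to 151 CPM in resident libraries. Uqcrh, the hinge protein, had 27.6 and 48.2 CPM in SiglecFhi/CD101+ cells, 117 and 53.4 CPM in Siglec-Fint/CD101- cells, and 70.2 to 99.9 CPM in resident libraries.

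Complex IV, cytochrome c oxidase, took 0.3% and 0.396% of the counts outside the mitochondrial genome in SiglecFhi/CD101+ cells, 0.478% and 0.345% in Siglec-Fint/CD101- cells, and 0.358% to 0.4% in resident libraries. These ranges overlapped. Cox8a, the smallest nuclear subunit, had 278 and 379 CPM in SiglecFhi/CD101+ cells, 329 and 284 CPM in Siglec-Fint/CD101- cells, and 344, 411, 300 and 401 CPM in resident libraries. Cox7a2l, a supercomplex assembly factor related to Cox7a, had 211 and 182 CPM in SiglecFhi/CD101+ cells, 342 and 176 CPM in Siglec-Fint/CD101- cells, and 225, 439, 297 and 331 CPM in resident libraries. SiglecFhi/CD101+ lay below all resident libraries for Cox7a2l, and the groups overlapped for Cox8a.

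Several complex IV subunits have isoforms with a narrow tissue range. Cox6b2, known from testis, had 6 and 0 counts in SiglecFhi/CD101+ cells, 27 and 0 in Siglec-Fint/CD101- cells, and 120, 256, 311 and 333 in resident libraries. By counts it made up 3.39% and 0.0% of Cox6b1 and Cox6b2 together in SiglecFhi/CD101+ cells. This share was 8.21% and 0.0% in Siglec-Fint/CD101- cells, and 7.8% to 11.4% in resident libraries. Replicate 1 of Siglec-Fint/CD101- was thus inside the resident range and the other 3 subset libraries below it. Cox6a2, the heart and muscle form, had 0 and 0 counts in SiglecFhi/CD101+ cells, 0 and 1 in Siglec-Fint/CD101- cells, and 0, 66, 67 and 32 in resident libraries. It was at least 4.04-fold lower in the SiglecFhi/CD101+ pair than in resident libraries, with the floor of 3 counts taken over the group. Cox7a1 and Cox8b, also muscle forms, had 0 counts in both subsets, where resident libraries had up to 13 counts of Cox7a1, and all 47 counts of Cox8b came from resident replicate 3. Cox4i2, the lung form of subunit 4, had 20.7 and 16.5 CPM in SiglecFhi/CD101+ cells, 0 and 39.7 CPM in Siglec-Fint/CD101- cells, and 16.7, 16.6, 16.6 and 25.8 CPM in resident libraries. The common form Cox4i1 is listed at 0 in all 8 libraries, so no ratio of the forms was formed.

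Ndufa4, a subunit of complex IV despite its name, had 0 and 12.8 CPM in SiglecFhi/CD101+ cells, 0 and 0 CPM in Siglec-Fint/CD101- cells, and 10.4, 7.94, 12.8 and 6.52 CPM in resident libraries. It was at least 9.21-fold lower in Siglec-Fint/CD101- than in resident libraries, against the floor over the group, and did not pass edgeR's test (adjusted p = 0.294). Its 21 SiglecFhi/CD101+ counts all came from replicate 2. Its hypoxia-inducible relative Ndufa4l2 had 28 and 1 counts in SiglecFhi/CD101+ cells, 39 and 1 in Siglec-Fint/CD101- cells, and 69, 0, 35 and 104 in resident libraries, with no order between groups.

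Complex V, the ATP synthase, had its lowest share in SiglecFhi/CD101+ libraries. Its 18 genes took 0.342% and 0.309% of the counts outside the mitochondrial genome in SiglecFhi/CD101+ cells, 0.478% and 0.409% in Siglec-Fint/CD101- cells, and 0.358%, 0.368%, 0.42% and 0.354% in resident libraries. By this share SiglecFhi/CD101+ lay below all other libraries, and the others overlapped. Summed levels were 920 ± 116 CPM in SiglecFhi/CD101+ (n = 2), 1410 ± 259 CPM in Siglec-Fint/CD101- (n = 2) and 1330 ± 87.4 CPM in resident libraries (n = 4).

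Atp5d, the delta subunit of the catalytic F1 part, had 45.1 and 19.5 CPM in SiglecFhi/CD101+ cells, 169 and 116 CPM in Siglec-Fint/CD101- cells, and 110, 102, 88.5 and 109 CPM in resident libraries. The groups did not overlap. The log2 fold change was -1.66 ± 0.67 against resident (adjusted p = 0.25) and -2.14 ± 0.74 against Siglec-Fint/CD101- (adjusted p = 0.239) by edgeR. Atp5j2, a subunit of the membrane part, had 50.9 and 56.7 CPM in SiglecFhi/CD101+ cells, 230 and 135 CPM in Siglec-Fint/CD101- cells, and 131, 99.3, 105 and 62.0 CPM in resident libraries, in the same order of groups. The genes of the rotating c ring differed among themselves. Atp5g1 had 86.4 and 88.4 CPM in SiglecFhi/CD101+ cells, 27.6 and 86.3 CPM in Siglec-Fint/CD101- cells, and 86.4 to 144 CPM in resident libraries. Atp5g2 had 153 and 138 CPM in SiglecFhi/CD101+ cells, 281 and 168 CPM in Siglec-Fint/CD101- cells, and 272, 226, 281 and 277 CPM in resident libraries. Atp5j, of the peripheral stalk, had 117 and 97.6 CPM in SiglecFhi/CD101+ cells, 185 and 159 CPM in Siglec-Fint/CD101- cells, and 139 to 194 CPM in resident libraries. SiglecFhi/CD101+ lay below the resident libraries for Atp5g2 and Atp5j, and Siglec-Fint/CD101- overlapped them for both genes.

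Complex I lay above the resident range by share in SiglecFhi/CD101+ libraries. It took 0.368% and 0.386% of the counts outside the mitochondrial genome in SiglecFhi/CD101+ cells, 0.313% and 0.349% in Siglec-Fint/CD101- cells, and 0.285% to 0.354% in resident libraries. All 87 members together took 1.14% and 1.22% in SiglecFhi/CD101+ cells, 1.52% and 1.31% in Siglec-Fint/CD101- cells, and 1.19%, 1.23%, 1.31% and 1.19% in resident libraries. By share of nuclear counts, 1 SiglecFhi/CD101+ library thus lay below the resident range and 1 within it. By TMM-scaled level the sum was 3320 ± 23.7 CPM in SiglecFhi/CD101+ (n = 2), 4480 ± 814 CPM in Siglec-Fint/CD101- (n = 2) and 4390 ± 284 CPM in resident libraries (n = 4), with both SiglecFhi/CD101+ libraries below all others. The log2 ratio of the SiglecFhi/CD101+ mean to the resident mean was -0.4 on this scale and -0.06 with mitochondrial genes left out of the total, and for complex I it was -0.04 and 0.29. Per count of the whole library without factors, a scale chosen after the data were seen, it was -1.07 for all members and -0.73 for complex I, and Siglec-Fint/CD101- against resident libraries gave -0.82 and -0.98. On that scale complexes I, III, IV and V and the members' sum were lower in both subsets by their means.

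**Figure D3:**
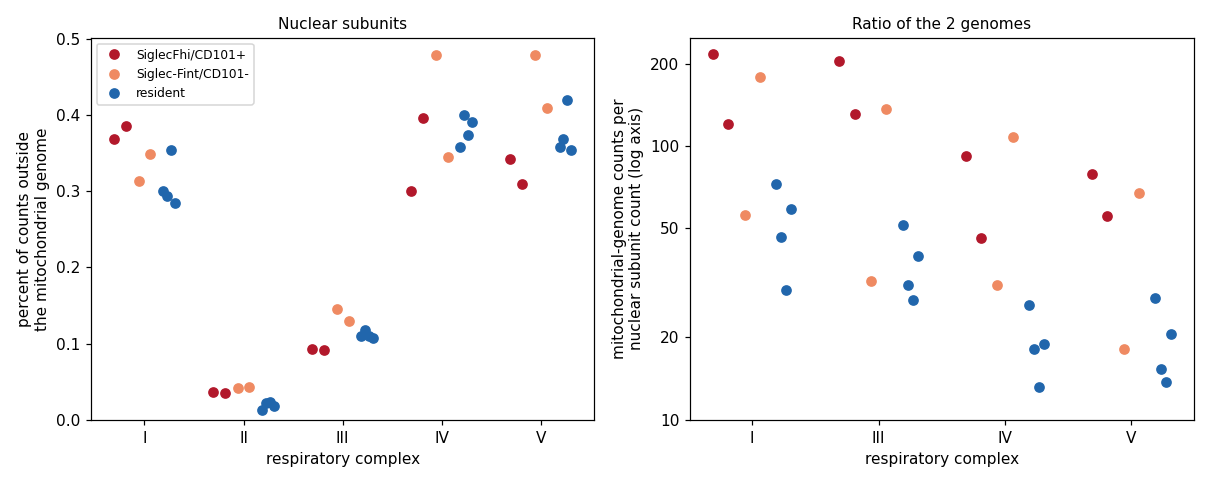
Left, percent of counts outside the mitochondrial genome taken by the nuclear subunits of each complex in each library; right, counts of mitochondrial-genome subunits per count of nuclear subunits of the same complex (log axis), with SiglecFhi/CD101+, Siglec-Fint/CD101- and resident libraries from left to right in each complex and points for libraries. Complex II shares are at 0.0353% to 0.0438% in the subsets and 0.0129% to 0.0233% in resident libraries. The ratio is higher in SiglecFhi/CD101+ than in resident libraries for all 4 complexes drawn, and it mainly restates the mitochondrial counts of a library.

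Transcripts of the 13 protein genes of the mitochondrial genome were set against those of the nuclear members. There were 134 and 77.1 mitochondrial counts per nuclear member count in SiglecFhi/CD101+ cells, 30.1 and 111 in Siglec-Fint/CD101- cells, and 39.2, 24.5, 18.5 and 30.1 in resident libraries. Both SiglecFhi/CD101+ libraries lay above all resident libraries, and Siglec-Fint/CD101- replicate 1 lay within their range. The members took 1.14% to 1.52% of the counts outside the mitochondrial genome in every library. The ratio therefore mainly restates how many mitochondrial counts a library held, and it cannot be read as particular to oxidative phosphorylation genes. All mitochondrial genes took 69.9% to 83.9% of the counts in subset libraries and 38.6% to 61.8% in resident libraries. Within complex I the mean ratio was 168 ± 67.6 in SiglecFhi/CD101+ cells, 117 ± 86.0 in Siglec-Fint/CD101- cells and 51.9 ± 18.1 in resident libraries (SD, n = 2, 2 and 4). Within complex IV it was 69.1 ± 32.2 in SiglecFhi/CD101+, 69.3 ± 54.1 in Siglec-Fint/CD101- cells, and 19.1 ± 5.42 in resident libraries. The median log2 fold change of these 13 genes over resident was 1.45 in SiglecFhi/CD101+ and 1.21 in Siglec-Fint/CD101-, with 12 of 13 at an unadjusted p under 0.05 and 0 called by edgeR and limma-voom in both. At that p 3.65% of all genes were higher in SiglecFhi/CD101+ and 1.9% in Siglec-Fint/CD101-. DESeq2 called 8 of the 13 higher in SiglecFhi/CD101+, where it called 2.64% of all genes, and 3 in Siglec-Fint/CD101-, where it called 0.922%.

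Other nuclear genes of mitochondrial function were counted from lists, and edgeR and limma-voom called 0 genes of each list in each comparison. Over all genes tested, 3.65% were higher and 13.1% lower at an unadjusted p under 0.05 in SiglecFhi/CD101+ against resident libraries, and 1.9% and 13.8% in Siglec-Fint/CD101-, and DESeq2 called 2.64% higher and 5.31% lower in SiglecFhi/CD101+ and 0.922% and 5.31% in Siglec-Fint/CD101-. The counts of each list below stand against these shares, and nothing particular to a list is read from them. Of 46 tested assembly factors of the respiratory complexes, 0 were higher and 8 lower at an unadjusted p under 0.05 in SiglecFhi/CD101+ against resident libraries, with a median log2 fold change of -2.09. In Siglec-Fint/CD101- against resident libraries 0 were higher and 9 lower, with a median of -1.48. DESeq2 called 3 lower in SiglecFhi/CD101+ and 2 lower in Siglec-Fint/CD101-. Cox14, a complex IV assembly factor, had 1 and 0 counts in SiglecFhi/CD101+ cells, 32 and 22 in Siglec-Fint/CD101- cells, and 14, 154, 356 and 201 in resident libraries. Coa6, a complex IV factor of copper delivery, had 0 and 0 counts in SiglecFhi/CD101+ cells, 70 and 14 in Siglec-Fint/CD101- cells, and 45, 62, 27 and 209 in resident libraries. Both had the same order of groups as Higd2a at far lower counts. Ttc19, a complex III factor, had 1 and 0 counts in SiglecFhi/CD101+ cells, 1 and 3 in Siglec-Fint/CD101- cells, and 193, 162, 41 and 291 in resident libraries. Surf1, another complex IV factor, had 6 and 0 counts in SiglecFhi/CD101+ cells, 0 and 0 in Siglec-Fint/CD101- cells, and 13, 223, 216 and 248 in resident libraries.

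The 38 tested genes of mitochondrial ribosome, DNA and translation had a median log2 fold change of -1.13 in SiglecFhi/CD101+ and -0.56 in Siglec-Fint/CD101-, each against resident libraries. At an unadjusted p under 0.05, 9 were lower in SiglecFhi/CD101+ and 7 in Siglec-Fint/CD101-, and 0 were higher in either, while DESeq2 called 1 lower in each. Mrpl14, a protein of the large mitochondrial ribosomal subunit, had 0 and 0 counts in SiglecFhi/CD101+ cells, 0 and 18 in Siglec-Fint/CD101- cells, and 146, 530, 614 and 441 in resident libraries.

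The 18 genes of the tricarboxylic acid cycle had a median of -0.81 in SiglecFhi/CD101+ and -0.29 in Siglec-Fint/CD101- against resident libraries. At an unadjusted p under 0.05, 0 were higher and 1 lower in SiglecFhi/CD101+, and 1 was higher and 1 lower in Siglec-Fint/CD101-, while DESeq2 called 1 higher in each. Suclg1, a subunit of succinyl-CoA ligase, which makes the substrate of complex II, had 77.9 and 48.2 CPM in SiglecFhi/CD101+ cells, 61.8 and 96.2 CPM in Siglec-Fint/CD101- cells, and 18.9, 34.0, 22.6 and 21.6 CPM in resident libraries. Both subsets lay above all resident libraries for Suclg1. The other ligase subunit genes did not follow it. Sucla2 had 0 and 0.61 CPM in SiglecFhi/CD101+ cells, 0 and 6.83 CPM in Siglec-Fint/CD101- cells, and 4.79 to 18.9 CPM in resident libraries. Suclg2 had 0.53 and 0 CPM in SiglecFhi/CD101+ cells, 8.72 and 9.93 CPM in Siglec-Fint/CD101- cells, and 0.931 to 9.59 CPM in resident libraries.

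The 18 tested genes of cytochrome c, ubiquinone synthesis and other carriers of electrons had a median of -0.64 in SiglecFhi/CD101+, with 2 lower at an unadjusted p under 0.05, and of -0.72 in Siglec-Fint/CD101-, with 1 lower. The 26 tested genes of mitochondrial carriers and import had a median of -0.5 in SiglecFhi/CD101+, with 5 lower, and of -0.52 in Siglec-Fint/CD101-, with 2 lower. The 11 tested regulators of mitochondrial biogenesis had a median of -0.73 in SiglecFhi/CD101+, with 0 lower, and of -0.79 in Siglec-Fint/CD101-, with 1 lower. In these lists 0 genes were higher at that p in either comparison. DESeq2 called 2 carriers lower in SiglecFhi/CD101+, and 1 electron carrier gene and 1 regulator lower in Siglec-Fint/CD101-. Ucp2, an uncoupling-family carrier of leukocytes, had 377 and 138 CPM in SiglecFhi/CD101+ cells, 390 and 136 CPM in Siglec-Fint/CD101- cells, and 768, 753, 473 and 791 CPM in resident libraries, so both subsets lay below all resident libraries. These medians stand beside medians over all genes tested of -0.72 for SiglecFhi/CD101+ and -1.0 for Siglec-Fint/CD101-.

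**Figure D4:**
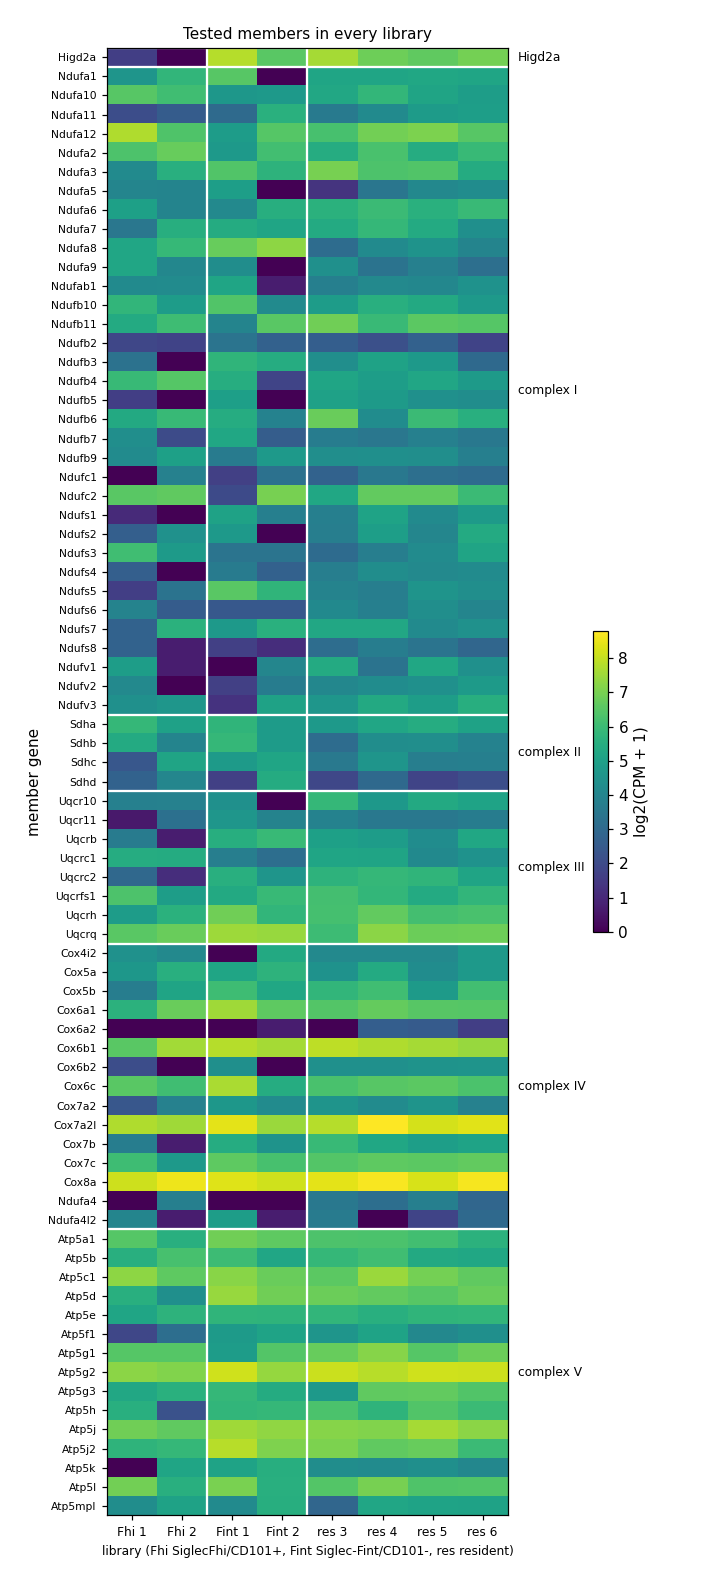
Level of the 77 tested members as log2(CPM + 1) (colour) in each library (columns, with SiglecFhi/CD101+, Siglec-Fint/CD101- and resident libraries from left to right), grouped by complex from top to bottom. Dark cells, at or near 0, are scattered over single subset libraries, and Higd2a is dark in both SiglecFhi/CD101+ libraries (2.12 and 0 CPM).

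Replicate libraries of a subset agreed less on members than resident libraries did. Among the 77 tested members, 9 differed by more than 8-fold between the SiglecFhi/CD101+ libraries (11.7%, against 19.7% of all genes tested) and 14 between the Siglec-Fint/CD101- libraries (18.2%, against 18.0%). Between pairs of resident libraries 0 to 2 members did (0.0% to 2.6%, against 12.3% to 15.2% of all genes). Across the 77 members, which are not independent replicates, Spearman's rho between libraries was 0.758 in SiglecFhi/CD101+ cells, 0.584 in Siglec-Fint/CD101- and 0.844 to 0.896 in resident pairs. These values were not brought to equal depth. Subset libraries held 444902 to 552121 counts outside the mitochondrial genome and resident libraries 2137819 to 5296468, and the part of depth in the disagreement was not tested. Members with a count numbered 75 and 69 of 87 in SiglecFhi/CD101+ cells, 73 and 69 in Siglec-Fint/CD101- cells, and 80, 78, 81 and 82 in resident libraries. Brought to the smallest library's 444902 counts outside the mitochondrial genome, these were 74.4 and 69.0 in SiglecFhi/CD101+ cells, 73.0 and 68.8 in Siglec-Fint/CD101- cells, and 76.4 to 80.0 in resident libraries. Every subset library lay below the resident libraries, and so it did for all nuclear genes at that depth, with 10422 and 9214 detected in SiglecFhi/CD101+ cells, 7300 and 8361 in Siglec-Fint/CD101- cells, and 10644 to 12804 in resident libraries.

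**Figure D5:**
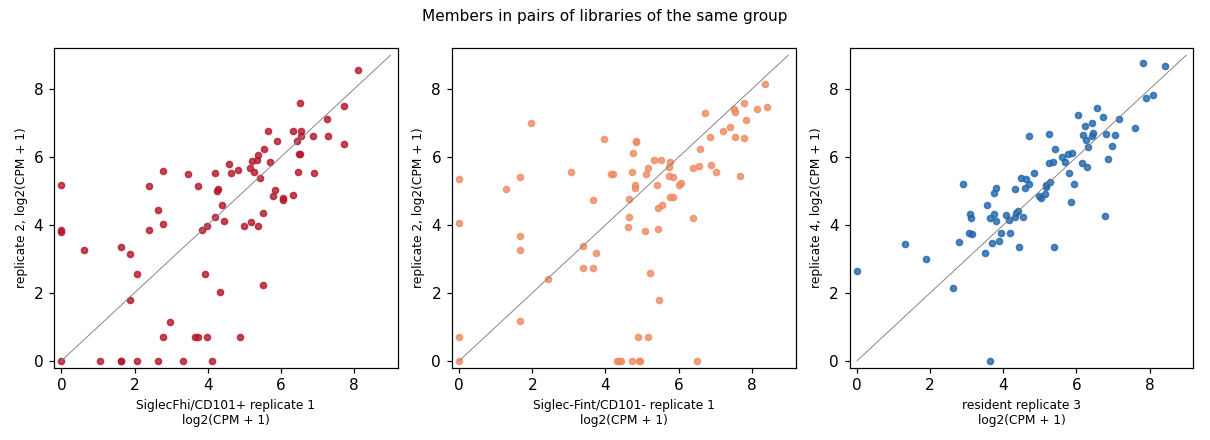
Level of the 77 tested members as log2(CPM + 1) in replicate 1 (horizontal axes) and replicate 2 (vertical axes) of SiglecFhi/CD101+ and Siglec-Fint/CD101-, and in replicates 3 and 4 of resident libraries; points are genes and the line marks equal levels. Members differ by more than 8-fold for 9 and 14 points in the first panels, against 2 in the resident panel.

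Of the 10 members that were not tested, Ndufa13, Cox4i1 and one entry of Atp5o are listed at 0 in all 8 libraries, although each encodes a subunit used by nearly every cell. The other 7, Ndufb8, the second Atp5o entry, Atp5s, Cox7a1, Cox7b2, Cox8b and Cox8c, had few counts. Exons of Ndufa13 overlap those of Tssk6 on the other strand, those of Cox4i1 overlap Emc8 over 9.9% of their length, and that Atp5o entry overlaps other genes over 12.3% on its own strand and 35.6% on the other. Whether these overlaps bear on the zeros was not tested.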

How the data were processed

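RNA of sorted eosinophils was sequenced by CEL-Seq in 8 libraries. The authors deposited raw counts per gene for each library. TopHat2 2.1.0, Bowtie2 2.2.6, HTSeq 0.6.1, cutadapt 1.10, Trim Galore, FastQC 0.11.5 and DESeq2 1.28.0 are named in the submitters' processing notes. The sources used here give neither the genome build nor the strand setting. Gene IDs were matched to GENCODE M21 (GRCm38): 54409 of 54446 had a symbol there. Groups came from the sample titles.

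Counts were fitted over all 8 libraries with edgeR 4.0.16 in R 4.3.3 (filterByExpr, TMM factors, robust quasi-likelihood test, group means), and p-values were adjusted by Benjamini-Hochberg over all 11828 genes tested, with a threshold of 0.05. On simulated counts with known changes in SiglecFhi/CD101+ against resident libraries, the fit gave the right direction in the median at every size. It called most genes only at the largest increase and few or none at the other sizes. A count of 0 called thus does not show that nothing changed. The simulated spread was estimated over all 8 libraries with groups ignored, so differences between groups entered it. Changed genes were drawn from those at or above the median level. The share recovered in the real data may therefore differ. Fold changes of genes with no count in a group are given against 3 counts over the group. Summed levels and shares carry no test. Alternatives were DESeq2 1.42.0, limma-voom (limma 3.58.1), other factors and filters, mitochondrial genes left out, a replicate block, and libraries left out in turn. Summed levels per library total were added after the data were seen. Members and lists were chosen with earlier results of these data known. Named genes were Higd2a, the 4 members with the smallest p per direction and comparison, the 2 highest per complex, isoform pairs, members with at least 1000 resident and at most 5 subset counts, and up to 3 genes per list. Uqcrb and members in the lists of calls were named after their values were seen.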

Additional observations from a re-analysis of the deposited data

Results flagged for a closer look

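Among 56 sets of 4 resident values examined, 5 held a library far from the other 3 by Dixon's ratio of the gap to the range, past its critical value for 4 samples. Chance gives about 1 set in 20, so the number is near what chance gives. Cox4i2 had 25.8 CPM in resident replicate 6 and 16.6 to 16.7 CPM in the others (ratio 0.987). Cox8b was at 7.85 CPM in resident replicate 3 and at 0 in the others (ratio 1.0). Sdhc had 23.0 CPM in resident replicate 4 and 10.7 to 12.8 CPM in the others (ratio 0.832). Atp5g2 had 226 CPM in the same library and 272 to 281 CPM in the others (ratio 0.833). The summed CPM of all members was 4810 in resident replicate 4 and 4190 to 4290 in the others (ratio 0.845). The causes were not tested.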

How the results depend on the processing

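Under the settings tried, counts of members called that are not named here moved by less than 1.5 times, and sums and medians by less than 1 SD. By DESeq2 the members called were 1 higher and 3 lower in SiglecFhi/CD101+ against resident, 2 higher in Siglec-Fint/CD101- against resident, 1 higher and 7 lower between the subsets, and 1 higher and 1 lower for both subsets against resident, where edgeR called 0. With no filter on low counts, 1 member was called lower in SiglecFhi/CD101+ against resident, between the subsets, and for both subsets against resident. With library totals, 1 was called lower in SiglecFhi/CD101+ and for both subsets against resident. In each of these last settings the member was Higd2a.

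The median log2 fold change of members moved with the scaling, and so did that of all genes. With RLE factors it was -0.05 in SiglecFhi/CD101+ against resident (all genes -0.26), 0.35 in Siglec-Fint/CD101- against resident (-0.63) and 0.16 for both subsets (-0.88). DESeq2 gave -0.05, 0.35 and 0.16 for the same comparisons. With library totals the medians were -1.03 in SiglecFhi/CD101+ and -0.94 in Siglec-Fint/CD101- against resident, -0.2 between the subsets and -1.0 for both subsets. limma-voom gave -0.17 for Siglec-Fint/CD101- against resident and -0.58 for both subsets. No filter gave -0.19 for Siglec-Fint/CD101- against resident, -0.3 between the subsets and -0.41 for both subsets. Fitting the groups compared alone gave -0.27 between the subsets. With mitochondrial genes left out of the total, the log2 ratio of summed levels, SiglecFhi/CD101+ to resident, was 0.29 for complex I, 0.92 for II, -0.27 for III, -0.13 for IV, -0.2 for V and -0.06 for all members, and Siglec-Fint/CD101- to resident was 0.1 for complex I. Per library total, added after the data were seen, these ratios were -0.73 for complex I, -0.13 for II, -1.28 for III, -1.1 for IV, -1.25 for V and -1.07 for all members in SiglecFhi/CD101+, and -0.98, 0.09, -0.71, -0.86, -0.78 and -0.82 in Siglec-Fint/CD101-. At equal depth a resident library held 78.2 members on average.

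The replicate block, with the number shared by the subset libraries as a term, gave medians of -0.66 in SiglecFhi/CD101+ against resident and -0.58 between the subsets, and turned Sdhc to -0.3 for both subsets. The differences of replicate 1 from replicate 2 in the subsets were not correlated (r = 0.007 over 11828 genes). With replicates this uneven, that cannot show whether libraries of the same number share a source, and the labels do not say. Leaving out each library in turn, the member median ran from -0.72 to -0.29 in SiglecFhi/CD101+ against resident and -0.42 to 0.09 in Siglec-Fint/CD101- against resident. It ran from -0.73 to -0.36 between the subsets and -0.67 to -0.12 for both. The median of all genes tested ran from -3.15 to -0.47, -4.42 to -0.72, 0.0 to 0.48 and -2.71 to -0.96 in the same comparisons. The all-gene medians given above thus depend on single libraries. Members called lower in SiglecFhi/CD101+ against resident ran from 0 to 1. In Siglec-Fint/CD101- against resident Higd2a ran from -0.57 to 0.72 and was -0.46 with library totals, and Sdhd ran from -0.84 to 3.36. Between the subsets Ndufa4 ran from 0.0 to 9.51, and Sdhc for both subsets from -0.43 to 1.1. Beyond these and the construction of each setting, the cause was not tested. Depth limits members with under 3 counts in a subset library.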

Other observations

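Smim20, a small membrane protein of early complex IV assembly, gave the mirror image of Higd2a between the subsets. It was found after its values were seen, as 1 of 4 genes with at least 1000 resident counts, at most 5 counts over both Siglec-Fint/CD101- libraries and at least 100 in each SiglecFhi/CD101+ library. It had 110 and 137 counts in SiglecFhi/CD101+ cells, 0 and 0 in Siglec-Fint/CD101- cells, and 700, 166, 472 and 147 in resident libraries. It was at least 69.7-fold higher in SiglecFhi/CD101+ than in the Siglec-Fint/CD101- pair, taken at 3 counts, and did not pass edgeR's test (adjusted p = 0.156). The other 3 genes were Cdc5l, Arhgap1 and Arhgap26.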
